A study of Mus musculus with 1016 samples.

Results

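The zygotes described here came from in vitro fertilization (IVF) and were compared by the time since insemination: earlier hours (5½, 6½ and 7½ h, within the limit of 7.9 h) against later hours (8½, 9½ and 10½ h), hours that the titles give as decimals (IVF_Zygote_10.5h). Members were all IVF zygotes with a column of replication states, an hour in the label and a replication score of 10 to 90, the score being the percentage of called 50 kb bins in the replicated state. Of 72 labelled IVF zygotes, 58 had a column and 57 were members, 29 earlier and 28 later, among 733 cells of the whole series. Single-cell Repli-seq sequences the DNA of single S-phase cells, where DNA already copied yields more reads than DNA still to be copied, and the authors deposited a binary state for each of 49264 bins on chromosomes 1 to 19 (mm10). In both groups alike, oocytes at metaphase II from F1 females of C57Bl/6J and CBA parents met spermatozoa from adult DBA/2J males, and no agent was given to the zygotes. The study's methods describe F1 females under 10 weeks of age, superovulated with gonadotropins, without repeating this for IVF. IVF fixes the moment of insemination, so this comparison asks whether the hour since then orders the zygotes in S phase and whether it accounts for differences in replication timing (RT) between them. The parthenotes used for comparison were (C57BL/6J x CBA)F1 oocytes activated by strontium without sperm. The tables hold no expression, so no marker could check the cell type.

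In most cells, gene-rich open chromatin replicates early in S phase and gene-poor, compact chromatin at the nuclear periphery replicates late. The mouse zygote copies a maternal and a paternal genome in 2 separate pronuclei, before the embryo depends on its own transcription. Both pronuclei of a fertilized zygote lie in a single library here, so the state of a bin is that of both genomes together. By allele, the study found several parthenogenetic cases among its IVF zygotes and left them out of further analyses. Parental origin was not checked here, so members with maternal DNA alone may remain.

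Each zygote is a whole embryo and a sample of its own, but the labels name neither dam nor dish. The title numbers 1 to 72 fall into 9 runs of 8 consecutive numbers, and every zygote of a run has the same hour. The run was therefore the unit of each test between hours, 5 earlier and 4 later runs, with all 126 ways of labelling the runs as the reference. The hours 6½, 7½ and 10½ h each had 2 runs, the second from numbers 49 to 72. Of the members 3, namely 2 earlier and 1 later, lacked a chromosome entirely, and 5.64 to 11.9% of the bins of a member were without a call.

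The mean replication score was highest at the first hour and followed no order over the later ones. The 5 zygotes of 5½ h had scores of 65.4, 72.3, 76.3, 77.5 and 82.03, a mean of 74.7 ± 6.24 (SD, n = 5), the highest mean of the 6 hours. The mean was 57.1 ± 15.9 (n = 11) at 6½ h, 58.3 ± 17.6 (n = 13) at 7½ h, 63.6 ± 9.04 (n = 7) at 8½ h, 62.8 ± 11.9 (n = 6) at 9½ h and 60.1 ± 15.4 (n = 15) at 10½ h. No member had a score under 29.6, and that zygote was collected at 10½ h.

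The earlier group spanned 31.9 to 89.1 with a median of 58.4, and the later group 29.6 to 86.996 with a median of 64.4. The 2 groups overlapped over almost their whole range. Between run means, the later hours were higher by 0.156 percentage points (exact permutation test over 9 runs, two-sided, p = 0.984). The sign of so small a value turned with the setting, from -11.0 among numbers 49 to 72 to 3.77 among numbers 1 to 48, and without the 5½ h run it was 3.54 (exact p = 0.457). Across the 57 zygotes, which share runs, Pearson's r between hour and score was -0.0697 and Spearman's rho was -0.0754, and without the 5½ h zygotes r was 0.0913. The smallest p that 126 labellings allow is 0.00794, so the design could have passed the threshold.

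**Figure D1:**
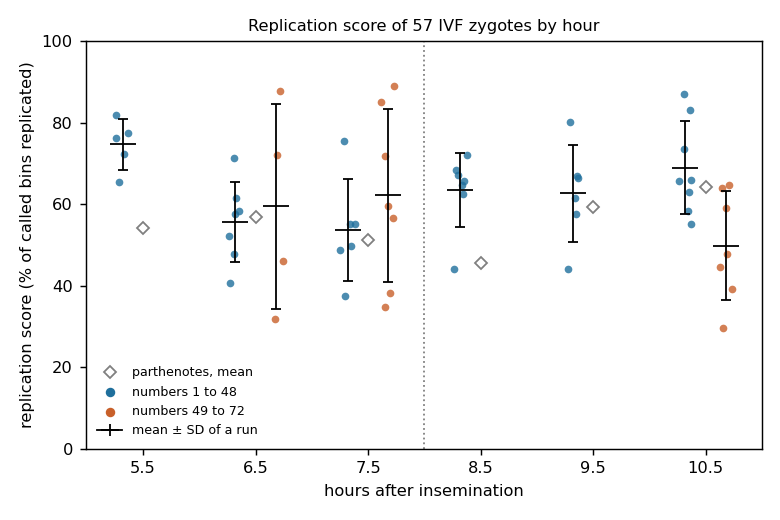
Replication score (percentage of called bins replicated) of each of the 57 IVF zygotes against the hour after insemination. Points are zygotes, coloured by title number, bars are the mean and SD of each run, open diamonds are parthenote means at the same hour, and the dotted line parts earlier from later hours. The 5½ h zygotes sit between 65.4 and 82.03, and at 10½ h one run averages 69.01 and the other 49.9.

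Runs of the same hour were also apart. At 10½ h, the 8 zygotes of numbers 41 to 48 averaged 69.01 ± 11.4 and the 7 of numbers 65 to 72 averaged 49.9 ± 13.3. At 6½ h the 2 runs averaged 55.7 ± 9.91 (n = 7) and 59.5 ± 25.2 (n = 4), and at 7½ h 53.7 ± 12.6 (n = 6) and 62.2 ± 21.3 (n = 7). The lowest and the highest of the 9 run means were thus those of 10½ h (49.9) and of 5½ h (74.7). Dish, insemination and hour cannot be told apart within a run.

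One zygote was just outside the upper limit, at 7½ h with a score of 90.03, and the member just inside it, also at 7½ h, had 89.1. With no limits on the score, the difference between run means was -0.540 percentage points.

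Parthenotes carry maternal DNA alone, and 31 of them had a score of 10 to 90 at the same 6 hours after activation. IVF zygotes had the higher mean at 5 of 6 hours, by 20.6 points at 5½ h (74.7 against 54.1 ± 8.01, n = 4), 17.9 at 8½ h (63.6 against 45.7 ± 19.5, n = 4), 7.05 at 7½ h, 3.31 at 9½ h and 0.142 at 6½ h. At 10½ h parthenotes had the higher mean, 64.2 ± 18.5 (n = 8) against 60.1. The mean difference over the hours was 7.47 points (exact sign-flip permutation test over 6 hours, two-sided, p = 0.156, the smallest possible being 0.0313). Hours count from activation in parthenotes and from insemination in IVF zygotes, so equal hours need not be equal stages.

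Which bins had replicated was examined with 2 fixed classes of bins, the earliest 20% and the latest 20% of bins by RT in 66 naturally fertilized zygotes, none of them a member. RT here is the share of cells with a bin replicated, averaged over 16 overlapping intervals of score, so that 1 is earliest and 0 latest. The earliest 20% was replicated to 74.1 ± 15.7% in the earlier group (lowest 40.1, median 73.6, highest 98.9, n = 29) and to 74.3 ± 14.02% in the later group (lowest 43.3, median 78.03, highest 92.6, n = 28). The latest 20% was replicated to 41.5 ± 21.2% (3.94 to 81.1, median 44.02) and 45.2 ± 15.7% (16.8 to 79.2, median 43.5). In every one of the 57 zygotes the earliest 20% was ahead, by 4.25 to 70.95 points, and the groups overlapped over most of that range.

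The lead of the earliest over the latest 20%, called the early-late contrast, averaged 32.5 ± 19.3 points in the earlier and 29.1 ± 15.3 points in the later group. Between run means it was 4.25 points smaller in the later hours (value -4.25, exact permutation test over 9 runs, two-sided, p = 0.571). With both classes taken from RT of 47 morula cells, the difference was -12.8 (exact p = 0.357). Neither setting passed the threshold.

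By hour, the contrast was 19.9 ± 8.33 (n = 5) at 5½ h, 42.4 ± 20.7 (n = 11) at 6½ h, 29.1 ± 17.8 (n = 13) at 7½ h, 45.3 ± 19.3 (n = 7) at 8½ h, 20.8 ± 12.7 (n = 6) at 9½ h and 24.9 ± 7.36 (n = 15) at 10½ h. The order of hours was neither rising nor falling, and the spread of single zygotes covered most of these differences. The zygotes with the widest contrast were at 8½ h (70.95), 6½ h (68.01 and 64.6) and 7½ h (62.5). The 5 at 5½ h did not go above 30.6 and the 15 at 10½ h not above 35.8. Without the 8½ h run the later hours were lower by 9.70 points, again short of the threshold (value -9.70, exact p = 0.214).

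Bins that a protein-coding gene overlaps, 56.7% of all, were then set against the other bins, a division made after the values above had been seen. In the earlier group, gene bins were ahead by 3.17 ± 10.9 points (lowest -12.5, median 2.03, highest 23.96). In the later group the value was -1.81 ± 6.76 points (lowest -12.6, median -3.85, highest 18.2), so that other bins were on average slightly ahead in the called states. Counts had been divided by each bin's mean over the stage, which can take out part of a lead common to the stage. The sign is thus partly relative to the other zygotes and need not give the order of replication itself. All 5 zygotes of 5½ h were at -12.5 to -8.60, and all 8 zygotes of the first 10½ h run were at -12.6 to -5.45. The 7 zygotes of the second 10½ h run lay on both sides of 0, at -7.59 to 8.35 (mean -0.464). The 4 zygotes of the second 6½ h run were at 0.559 to 23.96. Between run means the later hours were lower by 5.07 points (value -5.07, exact permutation test, two-sided, p = 0.365).

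**Figure D2:**
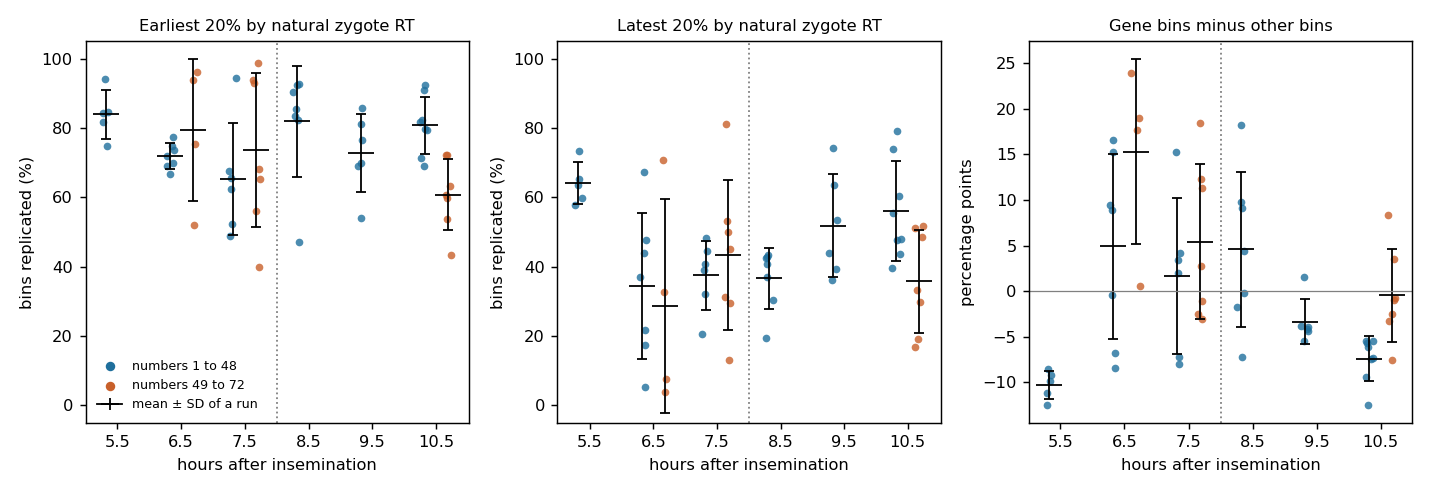
Percentage of bins replicated in the earliest 20% (left) and latest 20% (middle) of natural zygote RT, and the percentage of gene bins minus that of other bins (right), per zygote and hour. Points are zygotes, coloured by title number, with mean and SD per run. On the right, the 5½ h zygotes are all below 0 (mean -10.3), the 6½, 7½ and 8½ h zygotes spread to both sides of 0, and the means of 9½ h (-3.36) and 10½ h (-4.19) are below 0.

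RT was computed for each group over the 13 of 16 score intervals that held at least 3 zygotes of both. Across 46484 bins, Spearman's R between RT of the earlier and of the later zygotes was 0.617. The median difference (later minus earlier) was -0.00151, and RT spanned a similar range, with an SD over bins of 0.169 and 0.184. Most bins, 59.7%, had an RT of at least 0.5 in both groups and 19.2% were under 0.5 in both. A further 10.1% went from 0.5 or more to less, and 10.98% the other way. By a difference of at least 0.2, 7.68% of bins were earlier and 7.97% later in the later hours. Averaging both groups over the same score intervals brings their genome-wide RT close together by construction. The small median difference and the like shares of bins in both directions follow in part from that. These are descriptions of pooled zygotes, and leaving out 1 run moved R between 0.514 and 0.638.

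**Figure D3:**
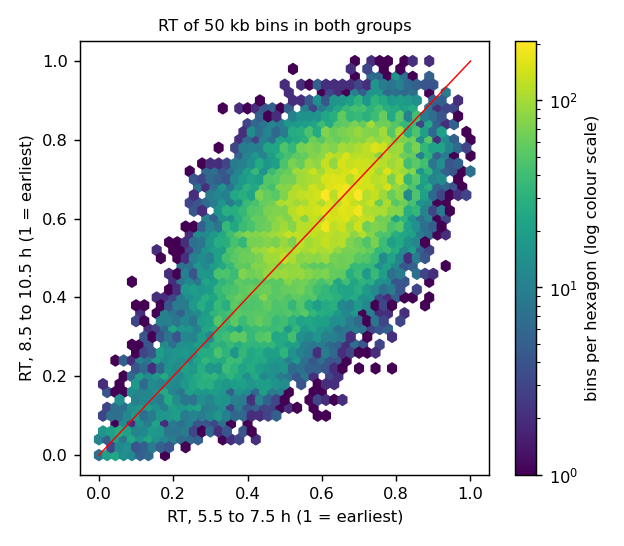
RT of 50 kb bins in zygotes of 5½ to 7½ h (x axis) and 8½ to 10½ h (y axis), both from 0 (latest) to 1 (earliest). Colour gives bins per hexagon on a log scale and the red line marks equal RT. Bins scatter widely about the line (Spearman's R of 0.617).

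Pooled RT of the earlier zygotes had R of 0.713 with natural zygote RT and that of the later zygotes 0.549, and R with morula RT was 0.429 and 0.119. These differences were not tested. By hour, the share of zygotes with each bin replicated had R with natural zygote RT of 0.247 at 5½ h (n = 5), 0.716 at 6½ h (n = 11), 0.531 at 7½ h (n = 13), 0.620 at 8½ h (n = 7), 0.304 at 9½ h (n = 6) and 0.417 at 10½ h (n = 15). The number of zygotes per hour sets part of such a value, so the order is a description. Per zygote, where that number plays no part, Pearson's r of the states with natural zygote RT averaged 0.266 ± 0.151 in the earlier and 0.233 ± 0.113 in the later group. It was 0.186 ± 0.0833 at 5½ h, 0.333 ± 0.146 at 6½ h, 0.240 ± 0.159 at 7½ h, 0.358 ± 0.145 at 8½ h, 0.168 ± 0.0888 at 9½ h and 0.1999 ± 0.0430 at 10½ h. The 6½ and 8½ h zygotes had the highest means on both scales.

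Chromosomes differed little in mean RT between the groups. The difference was within ±0.03 on 16 of 19 chromosomes and was -0.0903 on chromosome 19, -0.0519 on chromosome 15 and 0.0451 on chromosome 13. R between the groups was highest on chromosome 7, at 0.804. These values have no test, and the shared score intervals bring the genome-wide means of both groups together.

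Single regions were tested with limma over 2345 windows of 1 Mb, each zygote giving the percentage of the window replicated, with its score and the square of its score as covariates and the run as a random block. No window passed an adjusted p of 0.05 (0% called, smallest adjusted p 0.431). At an unadjusted p of 0.05, 142 windows passed (6.06%), 66 higher and 76 lower in the later hours. The median standard error was 10.4 percentage points.

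Because none was called, the 3 windows with the largest fitted difference in each direction are described, chosen for those values. Lower in the later hours by the largest amount was chromosome 16 from 94000001 to 95000000, which holds Dyrk1a, a protein kinase, Sim2, a transcription factor of neural development, and 7 other protein-coding genes. It was replicated to 73.04% on average in 28 earlier and 34.5% in 28 later zygotes, a fitted difference of -40.7 ± 10.6 points (SE, adjusted p 0.431 by limma). Its means by hour, which like those of the windows below are not adjusted for score, were 81, 78, 66.2, 66.4, 25.8 and 23% from 5½ to 10½ h. By these means the 8½ h zygotes were like the earlier ones. None of it was replicated in 14 of 28 later zygotes and in 2 of 28 earlier ones, but both groups ran from 0 to 100%.

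The next was chromosome 15 from 101000001 to 102000000, with 38 protein-coding genes, most of them keratins such as Krt5 and Krt8, the filament proteins of epithelia (57.1% against 20.7%, difference -35.8 ± 10.4, adjusted p 0.675). The third was chromosome 19 from 7000001 to 8000000, with 19 genes, among them Mark2, a kinase of cell polarity, and Otub1, a deubiquitinase (60.3% against 27.01%, difference -33.8 ± 10.8, adjusted p 0.675). In the chromosome 19 window the means of 8½, 9½ and 10½ h were 25.9, 23.96 and 28.8%, and that of 5½ h was 40%, below 61.9% at 6½ h and 66.8% at 7½ h.

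The 3 windows of opposite sign were poor in genes. Chromosome 4 from 37000001 to 38000000 has no protein-coding gene and was replicated to 47.1% in the earlier and 79.8% in the later zygotes (33.4 ± 10.95 points, adjusted p 0.705). Chromosome 7 from 124000001 to 125000000 holds only Hs3st4, a heparan sulphate sulphotransferase (55.5% against 86.96%, 32.6 ± 9.89 points, adjusted p 0.675). Chromosome 7 from 77000001 to 78000000 holds only Agbl1, a deglutamylase of tubulin (41.4% against 72.7%, 30.9 ± 10.53 points, adjusted p 0.734). In each of these the plain mean of the 5½ h zygotes, at 79, 90 and 86%, was nearer to that of the 10½ h zygotes (96, 89 and 90.7%) than to that of the 6½ h zygotes (40.9, 29.5 and 29.1%). Means by hour are not adjusted for score, which averaged 74.7 at 5½ h, 57.1 at 6½ h and 60.1 at 10½ h. Their order need not hold at like score. The 8½ h zygotes were at 27.9, 71.4 and 37.1%. In the chromosome 4 window this was the lowest mean of any hour. In the window from 77000001 it was close to the means of 6½ and 7½ h (29.1 and 34.2%). Only in the window from 124000001 was it above both of those hours (29.5 and 65%).

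RT of genes was taken as the mean over the bins a gene overlaps. Over 19975 protein-coding genes the median difference (later minus earlier hours) was -0.0529, with RT lower in the later hours for 13041 and higher for 6931. RT was higher by at least 0.2 for 3.19% of genes and lower by at least 0.2 for 13.8%. The median over bins with a gene was -0.0240 and over other bins 0.0317. Lists of genes are read against these values, without a test. With 1 run left out, the median difference turned its sign for the sperm, Hox, histone, olfactory, vomeronasal and maternally expressed imprinted lists. A gene is counted as replicated in a zygote where a share of at least 0.5 of its called bins had that state. The windows of the genes named below had adjusted p-values of 0.734 or more, and that of Mos was not tested.

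Genes of the oocyte and of maternal effect had a median difference of -0.0574 (22 genes, 8 higher and 14 lower), close to that of all genes. Nlrp5, part of the subcortical maternal complex, was among the latest-replicating genes of both groups: 1 of 28 zygotes had it replicated in the earlier and 1 of 28 in the later hours. Zp3, a protein of the egg coat, had an RT of 0.327 and 0.272, and Npm2, a histone chaperone of the oocyte, 0.650 and 0.488. The most positive difference of the list was that of Nobox, an oocyte transcription factor, replicated in 14 of 29 earlier and 21 of 28 later zygotes. The most negative was that of Mos, a kinase that holds oocytes in metaphase, replicated in 17 of 29 and 11 of 28.

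Sperm and spermatid genes had a median of -0.0224 (18 genes, 6 higher and 12 lower), and of -0.0618 to 0.0280 with 1 run left out, the highest without the second 10½ h run. Prm1, a protamine that packs sperm DNA, was replicated in 16 of 28 and 17 of 28 zygotes. Izumo1, the sperm protein that binds the egg, was replicated in 12 of 28 earlier and 3 of 28 later zygotes and had the most negative value of the list (RT 0.388 against 0.122).

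Genes activated at the 2-cell stage had a median of -0.101, with 8 of 10 genes lower and 2 higher. It was -0.0643 with the plain share of zygotes in place of RT. Over the 22 bins of the list the median share replicated per zygote was the same in both groups, 38.5%. These genes are late-replicating in both groups, with a median RT of 0.302 and 0.303. A further 8 genes of the list, among them Zscan4c and Tcstv1, had no RT value. Zfp352, a zinc finger gene first transcribed at that stage, was one of the 2 higher genes, with an RT of 0.328 in the earlier and 0.650 in the later hours. It was replicated in 11 of 29 and 19 of 28 zygotes. Dppa2, a regulator of genome activation, had 0.566 and 0.459.

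Of the genes of DNA methylation and demethylation 13 of 15 were lower (median -0.0883, 3 lower by at least 0.2). Uhrf1, which brings the maintenance methyltransferase to replicated DNA, was replicated in 12 of 29 earlier and 3 of 28 later zygotes: in 0 of 5 at 5½ h, 5 of 11 at 6½ h, 7 of 13 at 7½ h, and 1 of 7, 1 of 6 and 1 of 15 at 8½, 9½ and 10½ h. Tet3, the dioxygenase that oxidizes methylcytosine in the zygote, had an RT of 0.572 and 0.343 and Dnmt1 0.579 and 0.491. Dppa3, which protects the maternal genome from oxidation, had the most positive value (0.639 and 0.776).

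Replication factors had a median of -0.0747 (36 genes, 12 higher, 24 lower, 7 lower by at least 0.2). Pcna, the sliding clamp, was replicated in 19 of 29 and 20 of 28 zygotes and Rif1, a regulator of replication timing, in 24 of 29 and 24 of 28. Mcm3, a subunit of the replicative helicase, differed most, with an RT of 0.741 and 0.347, replicated in 22 of 29 and 12 of 28. Its RT in natural zygotes was 0.450, between both values.

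Housekeeping genes had a median of -0.116 (30 genes, 7 higher, 23 lower). Pgam1, a glycolytic enzyme on chromosome 19 (41911923 to 41918660), was replicated in 24 of 29 earlier and 12 of 28 later zygotes (RT 0.816 and 0.360). It was replicated in 10 of 11 zygotes at 6½ h and 5 of 15 at 10½ h. Gapdh had an RT of 0.481 and 0.333 and Actb 0.440 and 0.427. Ribosome biogenesis genes had a median of -0.0323 (13 higher and 17 lower of 30), with Fbl, the fibrillarin of the nucleolus, at 0.471 and 0.249 and Npm1 at 0.596 and 0.655.

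Genes of the first lineages were examined next. Pluripotency genes had a median of -0.120, the lowest outside the protocadherins, with 19 of 22 lower and 3 higher. Pou5f1 was replicated in 10 of 29 and 5 of 28 zygotes, Sox2 in 22 of 29 and 17 of 27, and Nanog, one of the 3 higher genes, in 18 of 29 and 21 of 28. Trophectoderm genes had a median of -0.0834 (14 of 19 lower), and of -0.151 to -0.0256 with 1 run left out, the latter without the 9½ h run. Over the 87 bins of these genes the median share replicated per zygote went the other way, 57.5% in the earlier and 68.97% in the later group. Most of these bins lie in the annotated span of Fgfr2 alone (chromosome 7, 130162451 to 133123350), the gene with the most positive difference of the list (0.0860). That value is a mean over the whole annotated span, including bins that other genes may share. The most negative gene was Krt18, a keratin of the first epithelium, with 20 of 29 and 8 of 28 (RT 0.676 and 0.302). Krt18 lies on chromosome 15 at 102028180 to 102032027, next to the keratin window above. Gata3 was early in both groups (27 of 29 and 24 of 28) and Cdx2 had an RT of 0.598 and 0.589. Primitive endoderm genes had a median of -0.0644 (13 of 20 lower), with Gata6 at 0.694 and 0.505, Sox17 at 0.578 and 0.388, and Foxa2 at 0.528 and 0.773. Over the 102 bins of this list the median share replicated per zygote was 57.1% in the earlier and 74.02% in the later group, again opposite to the gene median.

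Long neuronal genes had a median of opposite sign, 0.0371, with 23 of 32 higher and 9 lower in the later hours. These genes of cell adhesion and synapses each span many bins. Cntnap2 was replicated in 14 of 29 earlier and 22 of 28 later zygotes (RT 0.466 and 0.712), and Lrp1b and Robo2 had differences of 0.136 and 0.0732. Opcml, an adhesion protein, had the lowest value: 29 of 29 earlier zygotes had replicated it and 22 of 28 later ones. All 6 later zygotes without it were from 10½ h, where 9 of 15 had it replicated.

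**Figure D4:**
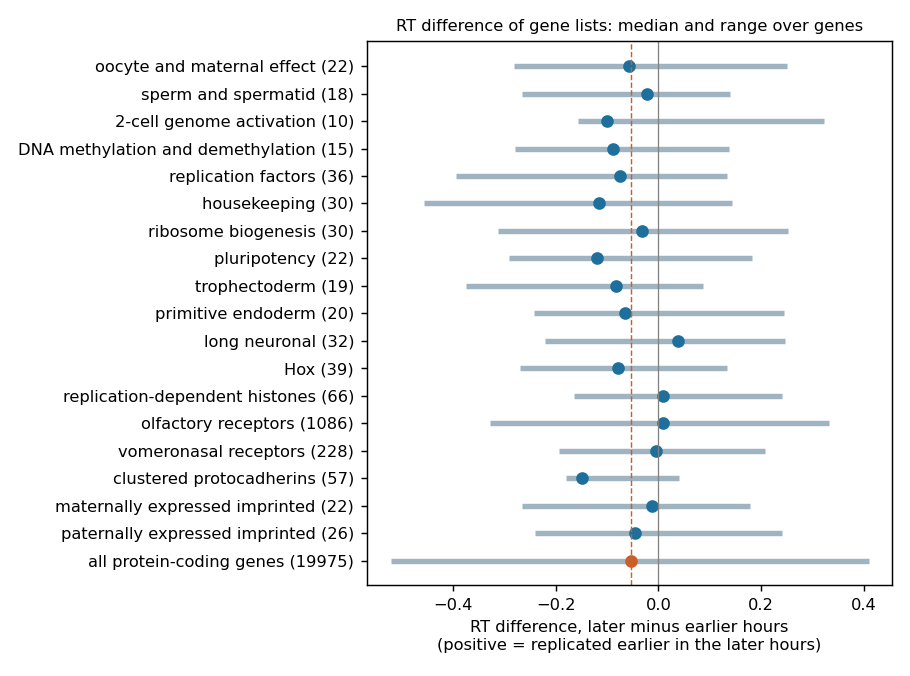
RT difference of 18 gene lists and of all protein-coding genes, later minus earlier hours, so that a positive value is earlier replication in the later hours. Points are medians, bars run from the lowest to the highest gene, brackets give genes with a value, and the dashed line is the median of all genes (-0.0529). Medians run from -0.120 (pluripotency) to 0.0371 (long neuronal), with the clustered protocadherins apart at -0.150, and each bar crosses 0.

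Gene families in clusters hold few independent regions. The 57 clustered protocadherins, adhesion proteins encoded at a single locus, had a median of -0.150 with 48 lower and 9 higher. It was -0.211 to -0.0356 with 1 run left out, the latter without the first 6½ h run. The Hox genes, in 4 clusters, had a median of -0.0798 (27 of 39 lower, 9 lower by at least 0.2), with Hoxd13 at an RT of 0.811 and 0.603. The Hox median was -0.0135 with the plain share of zygotes in place of RT, and -0.152 to 0.00489 with 1 run left out, above 0 without the second 10½ h run. Replication-dependent histone genes had a median of 0.00788, with 34 higher and 32 lower of 66 and 16 higher by at least 0.2. That median was below 0 with the plain share of zygotes in place of RT (-0.00862). Olfactory receptor genes (1086 with a value, median 0.00791) and vomeronasal receptor genes (228, median -0.00453) replicated late in both groups, with median RT of 0.259 and 0.265, and 0.241 and 0.174.

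Imprinted genes, expressed from 1 parental copy, had medians of -0.0136 for 22 maternally expressed and -0.0460 for 26 paternally expressed genes. Igf2r was replicated in 21 of 29 earlier and 15 of 28 later zygotes, and its antisense neighbour Airn, which shares some of its bins, in 21 of 29 and 14 of 28. Snrpn had the most positive value (6 of 28 and 14 of 28, RT 0.204 and 0.445). Igf2 was late in both groups, replicated in 5 of 28 and 6 of 28, and Meg3 had an RT of 0.512 and 0.428.

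The spread between zygotes was measured in pairs whose scores lay within 10 points. For 117 pairs of earlier zygotes, 40.04% of bins had unlike states, where both scores alone give 44.5%, and for 169 pairs of later zygotes 39.4% against 45.5%. The mean ratio of observed to given was 0.897 in the earlier and 0.864 in the later group. The difference of -0.0331 did not pass the test (exact permutation over 9 runs, two-sided, p = 0.437). In these called states, pairs of either group were thus unlike at little less than the rate that 2 zygotes with those scores and no shared order of bins would have. Counts had been divided by each bin's mean over the stage before states were called. That step can take out part of an order common to the zygotes, so these ratios and the correlations below may understate what they share.

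Pearson's r of the states was low in all kinds of pairs. Leaving out pairs of the same run, it averaged 0.112 over 220 pairs of the same group and 0.107 over 282 pairs of 1 earlier and 1 later zygote, a difference of 0.00478 (exact permutation test over 9 runs, one-sided, p = 0.317). Without the 5½ h run the difference was 0.0221 (exact p = 0.0857). Pairs within a run averaged 0.165 (66 pairs) and pairs of different runs 0.109 (502 pairs), values that were not tested. No pair was above 0.378. Over all 58 columns, the least unlike pair differed in 17.4% of bins, so no 2 columns held the same states, and that pair included the zygote outside the score limits.

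**Figure D5:**
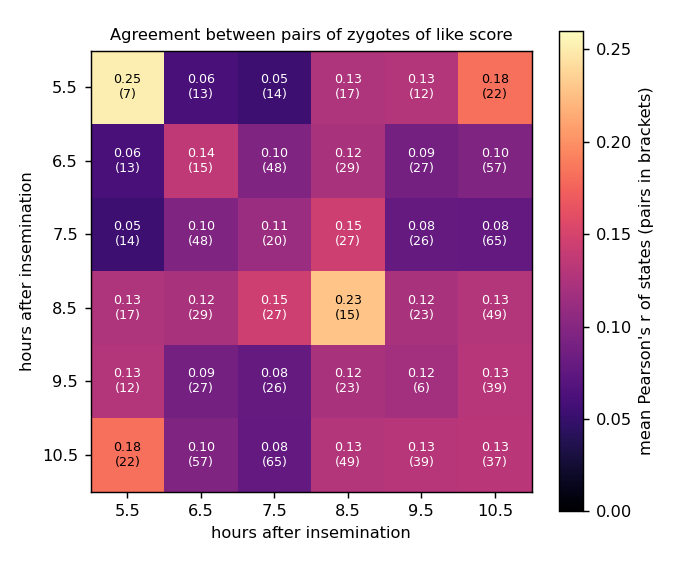
Mean Pearson's r of replication states over pairs of IVF zygotes with scores within 10 points, by the hours of both zygotes (axes, in hours after insemination), with the number of pairs in brackets. Pairs within 5½ h (0.25) and within 8½ h (0.23) have the highest means, pairs of 5½ h with 7½ h the lowest (0.05), and pairs of 5½ h with 10½ h reach 0.18. All pairs within 5½ h and within 8½ h are of the same run.

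Within hours, r averaged 0.252 at 5½ h (7 pairs) and 0.228 at 8½ h (15 pairs), and 0.113 to 0.135 at the other 4 hours. All pairs within 5½, 8½ and 9½ h are of the same run, while 6½, 7½ and 10½ h mix pairs within and between runs. Hour and run cannot be told apart in these means. The first run of 10½ h reached 0.222 (12 pairs) and the second only 0.0656 (7 pairs). Across hours, zygotes of 5½ h agreed least with those of 7½ h (0.0538, 14 pairs) and 6½ h (0.0615, 13 pairs) and most with those of 10½ h (0.182, 22 pairs). The hour most like 5½ h was thus not its neighbour. By contrast, 7½ and 8½ h agreed most with each other (0.145, 27 pairs). The 9½ h zygotes agreed almost equally with those of 10½ h (0.130, 39 pairs) and of 5½ h (0.128, 12 pairs).

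The variability score, which is 1 for a bin with an RT of 0.5 and 0 for one with an RT of 0 or 1, averaged 0.691 over bins in the earlier and 0.666 in the later group. Bins of intermediate RT (0.4 to 0.8) made up 77.2% and 74.8%. Both groups were spread to a similar degree by these measures, which have no test.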

How the data were processed

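Replication states were analysed for zygotes produced by IVF, with natural zygotes, parthenotes and morula cells as references. The authors deposited states of 1, 0 or missing, a kind of value other than counts or signal, for bins of 50 kb. Per the labels and the study's methods, reads were aligned to mm10 with Bowtie2 2.3.5, filtered with SAMtools 1.9 and counted with bedtools 2.29.0. Counts were divided by the bin's mean over the stage, centred and scaled per cell, smoothed, segmented and split into 2 states without a G1 reference. A zygote at the very start or end of S phase is therefore also split into 2 states, and a copy number that every zygote of the stage has in common is divided out. Read depth was not analysed here.

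Scores, RT (16 intervals, 35 points wide, 4.33 apart), pair statistics and exact permutation tests over runs were computed with Python 3.11.15, NumPy 2.4.6, pandas 2.3.3 and SciPy 1.17.1. Windows of 1 Mb with at least 10 called bins in at least 80% of zygotes were fitted with limma 3.58.1 and statmod 1.5.0 in R 4.3.3, with Benjamini-Hochberg adjustment. The steps were tested on simulated data. There the window fit called 15% of 200 windows changed by 20 points and 91.5% of those changed by 40 points. Differences of 20 points would thus mostly go uncalled. Gene positions were those of GENCODE M21 (GRCm38). The members, gene lists and tests were chosen with earlier results of these data known. Named genes were well-known members of each list and the gene with the most positive and the most negative RT difference in it. Named windows were the 3 of largest fitted difference in each direction. Of the listed genes outside the receptor families, 11 had no value. Of 326 vomeronasal and 1087 olfactory receptor genes, 228 and 1086 had one. Where p-values rest on runs, they measure the spread between runs, which may be technical.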

Additional observations from a re-analysis of the deposited data

Results flagged for a closer look

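In the 8½ h run of 7 zygotes, 1 had a score of 44.2, with the nearest of the others at 62.4, a gap of 0.655 of the run's range. This zygote also lacked all calls on chromosome 3. In the 9½ h run of 6 zygotes, 1 had gene bins ahead of other bins by 1.56 points, where the nearest of the others was at -3.79 (a gap of 0.754 of the range). Scores, early-late contrasts and gene bin differences of the 9 runs made 27 such checks, and chance alone sets apart about 1 in 20.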

How the results depend on the processing

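No paired analysis was possible because the earlier and later groups share no title numbers. The score difference (0.156) had no settled sign: it was -0.540 without score limits, -0.309 in zygotes the study's quality table passed, -11.0 in numbers 49 to 72, -1.20 with the hour as the unit and -0.190 with run medians, and -2.41 to 3.96 when 1 run was left out. The contrast difference (-4.25) was 1.94 in numbers 1 to 48 and -9.70 to 0.138 with 1 run left out. The discordance difference (-0.0331) was 0.0747 in numbers 49 to 72, and -0.0630 to -0.0143 with 1 run left out. Agreement within against between groups (0.00478) was -0.00156 for pairs within 20 points and -0.00576 to 0.0221 with 1 run left out. None of these 4 passed its threshold under any alternative run, but numbers 1 to 48 alone and the hour as the unit, with 20 labellings each, and numbers 49 to 72, with 3 or fewer, were too small to pass. Spearman's R (0.617) was 0.543 over all intervals, 0.574 with 2 zygotes per interval and 0.514 to 0.638 with 1 run left out. The parthenote difference (7.47) was 4.84 to 9.79 with 1 hour left out. Windows called (0) were 28 of 2345 in numbers 49 to 72, 14 in each direction, where 1 later run of 7 zygotes stands against 2 earlier runs of 11. With 1 later run, run and hour cannot be told apart in that fit. Its estimated correlation within runs was negative (-0.0540), which narrows the errors of a difference between runs. Windows called were 2 without the 8½ h run and 0 without any other single run. Leaving out 3 zygotes with fewer than 500 switches of state, chosen after seeing the data, called no window. The cause of these changes was not tested.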

Other observations

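The number of switches of state between neighbouring called bins of a chromosome ran from 375 to 1558 over the 57 zygotes. Zygotes with a high score had fewer switches (Pearson's r of -0.561 and Spearman's rho of -0.556, over zygotes that share runs). The mean was 827 ± 250 (SD, n = 5) at 5½ h and 1159 ± 112 (n = 7) at 8½ h, and 1016 ± 301 in the earlier against 1045 ± 245 in the later group.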
